A study of Mus musculus with 8 samples.

Results

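The genes described here are 43 genes of the cardiac sarcomere and of the structures attached to it, taken from the gene count table by their symbols out of 43346 genes listed. They code for proteins of the thick filament (9 genes), the thin filament (11 genes), titin and the M-band (3 genes), the Z-disc (9 genes), titin-associated signalling (3 genes), the intercalated disc, costamere and intermediate filament (6 genes) and myofibril assembly (2 genes). Of the 43, 41 had enough counts to be tested, while Tnni1 and Ankrd2 did not pass edgeR's filter on low counts. RNA was isolated from the ventricles of 8 male C57BL/6 mice and sequenced. At 7 weeks of age 4 mice were injected with 1000000 LLC1 cells, a mouse Lewis lung carcinoma line implanted under the skin of the flank, and 4 were injected with the PBS vehicle. All were sampled after 14 days. Each group is therefore of 1 sex, 1 strain and 1 time point. Mice are named by their group and the code in their label, and values are given in the order LLC1 1-2, 1-3, 1-5 and 2-2 and then PBS 1-1, 1-3, 2-1 and 2-5.

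The sarcomere is the contractile unit of striated muscle, in which myosin of the thick filament pulls on actin of the thin filament. Thin filaments are anchored in the Z-disc, thick filaments are joined at the M-band, and titin spans from the Z-disc to the M-band as a spring and a scaffold. Several of these proteins come in paralogs: the adult mouse ventricle uses mainly the alpha myosin heavy chain Myh6 and cardiac actin Actc1, while the beta chain Myh7 and skeletal actin Acta1 belong to the fetal program that the stressed rodent heart can take up again.

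Libraries held 12480706 to 19747596 counts, so that a level of 1 CPM (counts scaled to a library of 1000000) was 12.5 to 19.7 counts. Values below are CPM scaled with edgeR's TMM factors, as mean ± SD of 4 mice, and a gene is called changed where edgeR's quasi-likelihood test, run over 16111 genes, gave an FDR under 0.05. The labelled tissue was checked against 8 cardiomyocyte markers, whose summed level was 41256 to 46336 CPM in tumor-bearing mice and 39767 to 42595 CPM in PBS-injected mice, and 1 of the 8 (Cox6a2) was higher. Of 12 skeletal muscle markers 4 could be tested and none passed, with sums of 35.8 to 51.2 CPM and 32.7 to 45.3 CPM and Myh4 at 0 in every mouse. Of 4 atrial markers Bmp10 was at 0 in every mouse, and the sums, mostly Nppa, were 112 to 339 CPM and 122 to 249 CPM. In PBS 1-1 some members stood apart from the other PBS-injected mice, Ttn at 2.22-fold and Tcap at 0.585-fold of their geometric mean. Members whose call at an FDR under 0.05 turned on this mouse are therefore also given without it.

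Of the 41 members tested, 8 were higher in tumor-bearing mice (Myh6, Myh7, Mybpc3, Mylk3, Myom2, Mypn, Nrap and Des) and 0 were lower. Over all genes tested, 4.12% were higher and 4.61% were lower, 8.73% in all. At an unadjusted p under 0.05 there were 20 of the 41 members and 4103 of all 16111 genes, and DESeq2 called 13 higher and 0 lower, where it called 923 (5.75%) of 16043 genes higher and 820 lower. The log2 fold change was above 0 in 29 members and below 0 in 12, against 7724 and 8387 of all genes, with a median of 0.14 against -0.01 over all genes. Of the 8 cardiomyocyte markers, 7 were above 0 and 1 was below, with a median of 0.097. In 15 members every tumor-bearing mouse was above every PBS-injected mouse, and in none of the tested members was every tumor-bearing mouse below, where 8.89% and 8.27% of all genes did so. The count of 8 members called higher varied with the mice used. It was 13 without PBS 1-1, 5 without LLC1 1-2 or LLC1 2-2, and 4 without LLC1 1-3, LLC1 1-5, PBS 1-3 or PBS 2-1. The share of all genes called higher moved as well, to 5.56% without PBS 1-1, 2.02% and 2.16% without LLC1 1-2 and LLC1 2-2, and 1.7%, 1.92%, 1.3% and 2.25% without the last 4 mice in that order. Without PBS 1-1, Mypn was no longer called, and Myh7b, Tnnt2, Tnni3, Lmod2, Myom1 and Myoz2 were called in addition. Scaling moved it too. With total counts in place of TMM factors 3 members were higher, and over all genes 225 were higher and 793 lower, against 663 and 743 with TMM. With offsets for gene length 12 members were higher, and over all genes 1002 were higher and 610 lower. In bulk tissue, a different share of cardiomyocytes and a different amount of RNA per cardiomyocyte cannot be told apart. Beside these counts, 4 of 7 fibroblast markers were lower (Col1a1, Col1a2, Col3a1 and Lum; sums of 960 to 1072 CPM against 1068 to 1552 CPM), as were 1 of 6 endothelial markers (Kdr; 809 to 938 against 916 to 1212 CPM) and 1 of 5 macrophage markers (Ptprc; 101 to 115 against 102 to 163 CPM). Of 5 smooth muscle markers and 3 erythroid markers, 0 passed at an FDR under 0.05 in edgeR's test, while 1 smooth muscle marker had an unadjusted p under 0.05. Their part in the result was not tested.

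**Figure D1:**
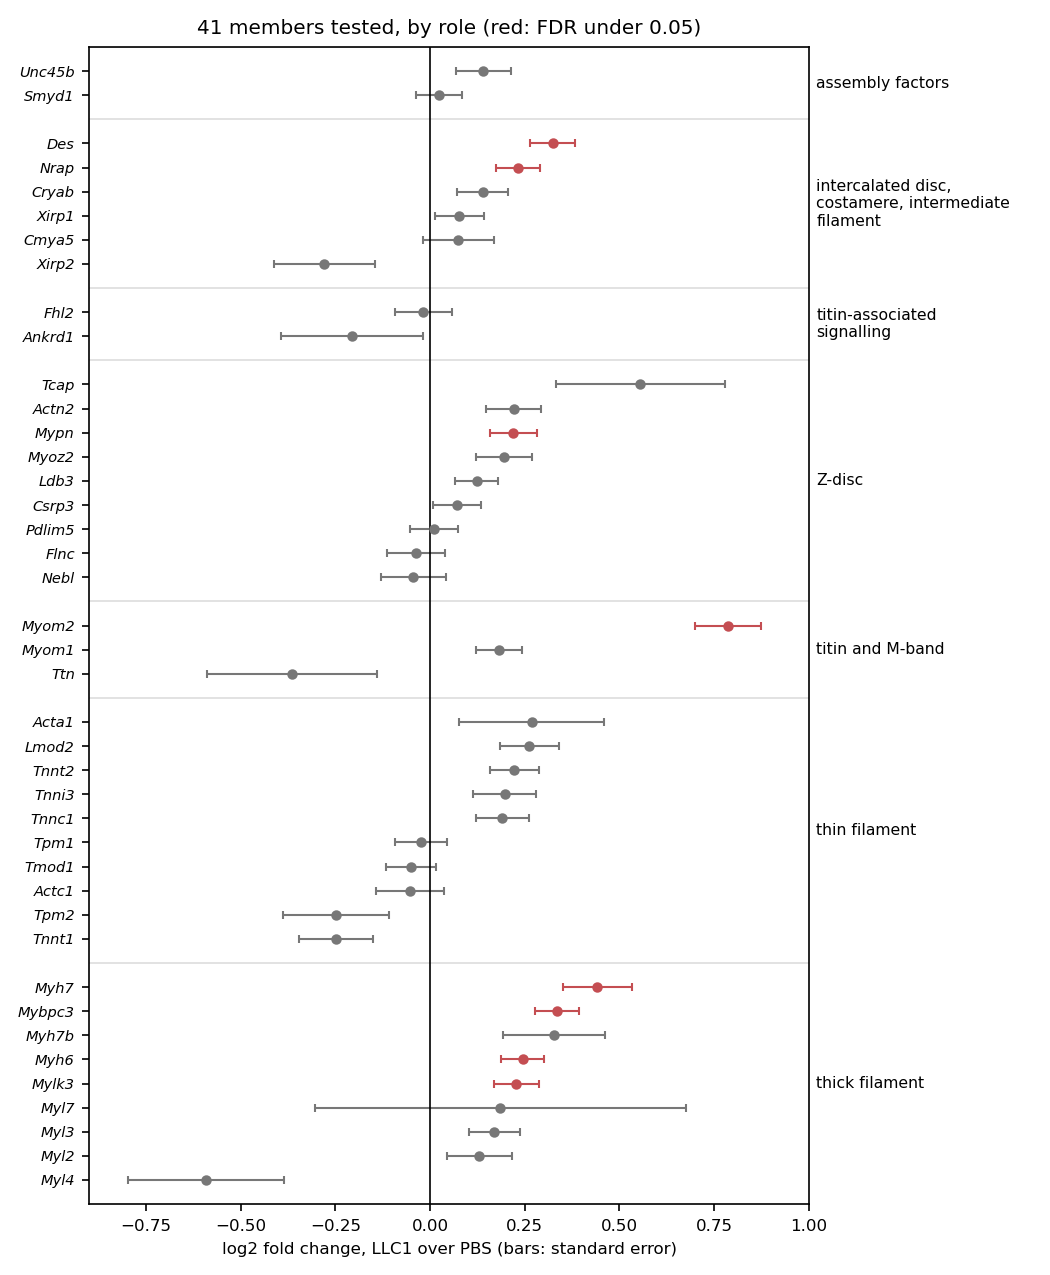
Log2 fold change of tumor-bearing over PBS-injected mice (horizontal axis, bars are standard errors, 4 mice a group) for the 41 tested members, grouped by role, with members of FDR under 0.05 in red. The 8 red points lie at 0.22 or above, Myom2 farthest to the right at 0.79, and members of the thin filament fall on both sides of 0.

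Together the 43 genes took up 15.3 ± 0.110% of all counts in tumor-bearing mice and 14.3 ± 0.331% in PBS-injected mice. The thick filament held the largest part, at 7.97, 7.99, 8.05 and 8.23% in the tumor-bearing mice and 6.48, 7.08, 7.20 and 7.41% in the PBS-injected mice. The groups did not overlap for the thick filament, with PBS 1-1 lowest. They did not overlap either for the intercalated disc, costamere and intermediate filament, at 0.728, 0.727, 0.748 and 0.756% against 0.672, 0.709, 0.707 and 0.666%. For the thin filament the shares were 3.88 ± 0.0999% and 3.83 ± 0.244%, and they overlapped. The titin and M-band share was 1.31 ± 0.0261% and 1.45 ± 0.412%, with PBS 1-1 alone at 2.06%. Because the share of a gene depends on all other counts, these are descriptions and were not tested.

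**Figure D2:**
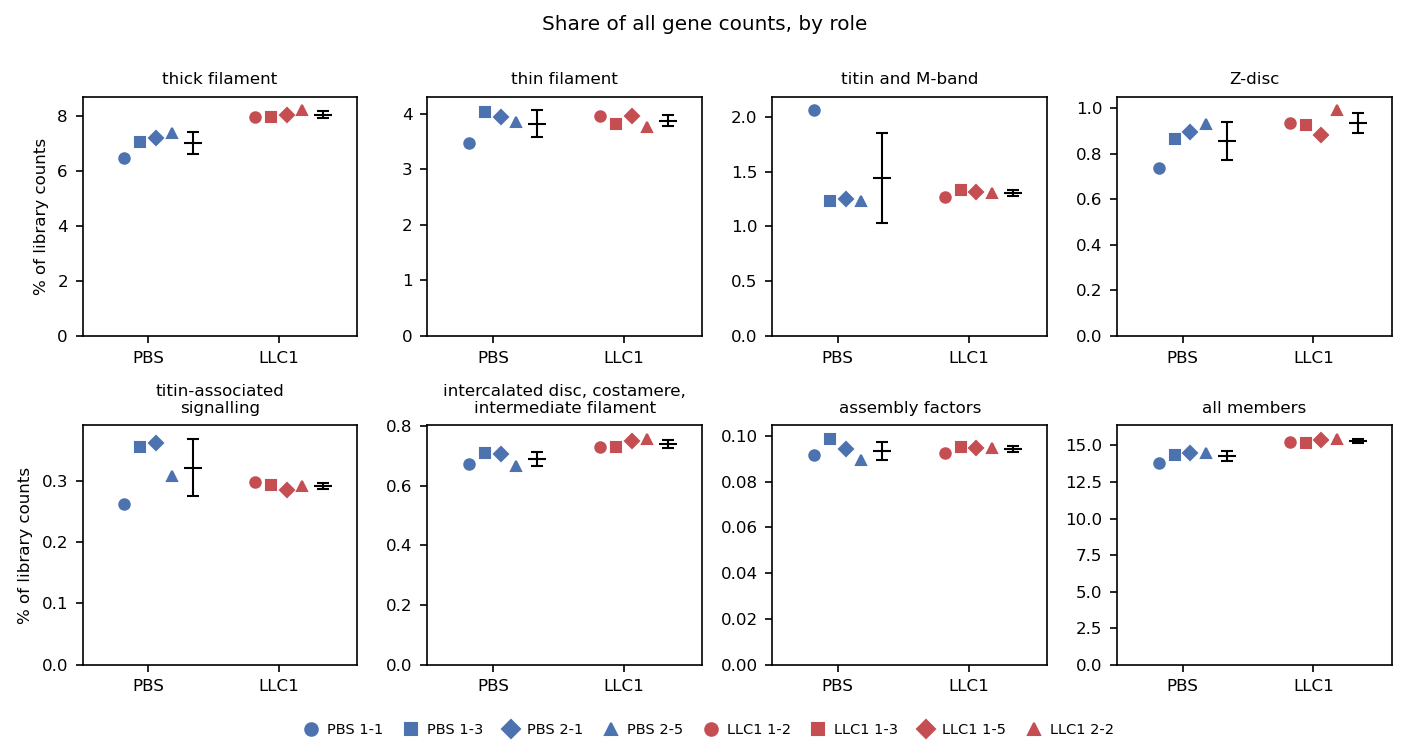
Share of all gene counts in each library (vertical axes in percent, starting at 0) for the 7 roles and for all 43 members, with a point for each mouse and the mean ± SD of 4 mice beside them. All 4 tumor-bearing mice lie above all 4 PBS-injected mice for the thick filament, for the intercalated disc, costamere and intermediate filament, and for all members, and PBS 1-1 stands alone at 2.06% for titin and the M-band.

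Myosin heavy chains form the motor of the thick filament. Myh6 (ENSMUSG00000040752, chr14:54941921-54966927, mm10), the fast adult alpha chain, was at 53472, 53471, 56459.5 and 53927 CPM in the tumor-bearing mice. In the PBS-injected mice it was at 45634, 44721, 45514 and 47606 CPM. The groups did not overlap, and LLC1 1-5 was the highest. Myh6 was 1.18-fold higher (log2 fold change 0.24, SE 0.0559, FDR 0.0209), and it kept an FDR under 0.05 in 4 of the 8 fits that left out 1 mouse. Myh7 (ENSMUSG00000053093, chr14:54970688-54994634), the slow beta chain, was at 6729, 6269.6, 6054 and 6788 CPM against 3879, 4983, 4956 and 5209 CPM. Every tumor-bearing mouse was above every PBS-injected mouse, and PBS 1-1 was the lowest. Its log2 fold change was 0.44 (SE 0.0909, FDR 0.0137), and 0.36 (FDR 0.0041) without PBS 1-1. With scaling to total counts only it was 0.38 and did not pass (FDR 0.0704). Myh7b, a further slow-type heavy chain gene, ranged over 247 to 317 CPM and 184 to 296 CPM, with a log2 fold change of 0.33 (FDR 0.149) and, without PBS 1-1, 0.49 (FDR 0.00546).

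Each of these 3 heavy chain genes carries a microRNA in it. Their sequences are shown because they share most of a seed although they come from an adult, a fetal and a slow-type myosin gene. They are from RefSeq (GRCm38.p6), with bases 2 to 8, the seed, in capitals. MicroRNA levels were not measured by these libraries.
miR-208a-3p, in Myh6, chr14:54949072-54949093, minus strand: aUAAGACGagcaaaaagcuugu
miR-208b-3p, in Myh7, chr14:54975710-54975731, minus strand: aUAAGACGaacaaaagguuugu
miR-499-5p, in Myh7b, chr2:155622893-155622913, plus strand: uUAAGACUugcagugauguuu
The seeds of miR-208a-3p and miR-208b-3p are identical, and that of miR-499-5p has another last base.

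The upstream sequence of the adult and fetal paralogs is shown because these are the genes the isoform contrast turns on. Each is the RefSeq sequence (GRCm38.p6, minus strand, 5′ to 3′) from 250 to 36 bases before the annotated start. Capitals mark matches to the CArG box, to which serum response factor binds, and to the MCAT element (CATTCC or, on the other strand, GGAATG), to which TEAD factors bind.
Myh6, chr14:54966643-54966857: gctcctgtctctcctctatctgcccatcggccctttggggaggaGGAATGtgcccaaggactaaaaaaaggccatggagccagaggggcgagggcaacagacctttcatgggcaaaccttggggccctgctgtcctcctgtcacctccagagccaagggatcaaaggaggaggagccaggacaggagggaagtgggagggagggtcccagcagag
Myh7, chr14:54994662-54994876: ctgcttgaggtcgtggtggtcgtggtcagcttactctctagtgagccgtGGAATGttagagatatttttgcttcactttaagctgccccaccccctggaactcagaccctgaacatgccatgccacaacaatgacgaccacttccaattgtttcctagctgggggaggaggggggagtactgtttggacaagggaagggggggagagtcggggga
Acta1, chr8:123894811-123895025: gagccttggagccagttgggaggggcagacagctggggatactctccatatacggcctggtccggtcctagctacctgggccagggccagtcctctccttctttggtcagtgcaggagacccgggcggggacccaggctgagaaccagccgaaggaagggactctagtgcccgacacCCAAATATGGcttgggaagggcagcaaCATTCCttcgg
Actc1, chr2:114052911-114053125: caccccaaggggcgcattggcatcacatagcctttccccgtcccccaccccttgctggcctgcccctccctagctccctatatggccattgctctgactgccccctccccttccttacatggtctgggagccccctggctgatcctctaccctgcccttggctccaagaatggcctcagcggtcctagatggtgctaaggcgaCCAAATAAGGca
Myh6 and Myh7 each hold 1 MCAT element, Acta1 holds 1 of each motif and Actc1 holds 1 CArG box. The first window searched ended 51 bases before the start. It was widened after the matches in it were seen, because a CArG box of Actc1 lay just outside, so both windows are given. Of 39 members with an entry, 7 held a CArG box and 11 an MCAT element in the first window, and 8 and 13 in the wider window. Counted over windows, where some genes have more than 1, this was 13.5% and 21.2% of 52 member windows in the first and 15.4% and 25% in the wider. Of all 32851 windows, 1.16% held a CArG box and 10.7% an MCAT element in the first, and 1.27% and 11.3% in the wider. In the count table the genes Myh6 and Actc1 begin farther upstream than the RefSeq start, so their windows lie within the table's gene span. A match describes letters only, and binding was not measured.

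Within each mouse the log2 ratio of Myh7 to Myh6 counts was -2.99, -3.09, -3.22 and -2.99 in tumor-bearing mice and -3.56, -3.17, -3.20 and -3.19 in PBS-injected mice. The groups overlapped, and PBS 1-1 was lower than the other 7. The difference was 0.20 (SE 0.108), with p = 0.114 in a two-sided exact permutation test and 0.229 adjusted over 6 ratios. Without PBS 1-1 the difference was 0.11. Scaled for length, Myh7 made up 8.16 ± 0.56% of the Myh6 and Myh7 level in tumor-bearing mice and 7.18 ± 0.81% in PBS-injected mice. Per kilobase, Myh6 was at 8480.2 and 7159 CPM and Myh7 at 752 and 554 CPM. The longest aligned stretch between their transcripts was 91.8% identical over 5810 bases, and how reads matching both were counted is not given in the sources used here. The antisense gene Mhrt overlaps 5.62% of Myh7 exons on the other strand and was itself higher, at 1882 ± 140.4 against 1294 ± 224 CPM (log2 fold change 0.54, FDR 0.0155). The use of strand in counting is not given in the sources used here, so how reads of the shared bases were divided between Myh7 and Mhrt is not known.

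The other thick filament members are light chains, their kinase and a binding protein. Mybpc3 (ENSMUSG00000002100, chr2:91118144-91136516), cardiac myosin-binding protein C, which tethers and regulates myosin heads, was at 6097, 6292, 6249 and 6436 CPM in tumor-bearing mice and 4835, 5084, 4828 and 5118 CPM in PBS-injected mice. The groups were well apart, with narrow spread in both. It was 1.26-fold higher (log2 fold change 0.34, SE 0.0583, FDR 0.00678). Mylk3 (ENSMUSG00000031698, chr8:85324303-85386345), the cardiac kinase of the regulatory light chain, was at 965, 900.5, 870.3 and 937 CPM and 795, 768, 779 and 796 CPM. These too did not overlap, and the log2 fold change was 0.23 (SE 0.0594, FDR 0.0354), under 0.05 in 2 of 8 fits without 1 mouse. Myl2, the ventricular regulatory light chain and substrate of Mylk3, was at 8641, 7505, 7526 and 7202 CPM and 8124, 6798, 6867 and 6430.1 CPM. The ranges overlapped, and the FDR was 0.372. Myl3, the ventricular essential light chain, was at 6810.0, 5989.6, 5867 and 6172 CPM and 5824, 5458, 5511 and 5286 CPM. Every tumor-bearing mouse was above, PBS 1-1 coming closest, but the FDR was 0.139.

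Atrial and fetal light chains were near the limit of detection in these ventricles. Myl4, the atrial essential light chain, was at 1.98, 1.38, 1.53 and 1.51 CPM and 2.23, 2.94, 2.65 and 1.83 CPM, from 21 to 45 counts a mouse. Its FDR was 0.0985, and LLC1 1-2 lay within the PBS range. Set against Myl3 in the same mouse, the log2 ratio was -11.72, -12.05, -11.88 and -11.97 in tumor-bearing mice and -11.32, -10.84, -11.01 and -11.47 in PBS-injected mice. The tumor-bearing mice were all lower. The difference was -0.74 (SE 0.161), with an exact permutation p of 0.0286, the smallest that 4 against 4 mice allow, and 0.0857 adjusted over 6 ratios. Myl7, the atrial regulatory light chain, was at 0.331, 2.04, 0.492 and 1.51 CPM and 0.601, 1.05, 1.41 and 0.708 CPM. It scattered in both groups, and its log2 ratio to Myl2 was -14.54, -11.82, -13.82 and -12.20 and -13.62, -12.61, -12.22 and -13.09 (exact permutation p = 0.8). The atrial marker sums given above overlapped between the groups, Sln and Bmp10 were too low to test, and Dkk3 was lower (FDR 0.0377). The part of atrial tissue in these ratios was not tested.

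Among the 10 thin filament members tested, 0 passed at an FDR under 0.05 in edgeR's test in either direction, while 5 had an unadjusted p under 0.05, where 4103 of all 16111 genes did, and the median log2 fold change was 0.08. Of the 12 alternatives, 6 called Lmod2, 4 called Tnnt2 and 1 called Tnnc1 higher. Actc1 (ENSMUSG00000068614, chr2:114047282-114053548), the adult cardiac actin, was at 9213, 10117, 11772 and 9207 CPM and 9689, 11596, 10134 and 10416 CPM. The groups overlapped widely (log2 fold change -0.05, FDR 0.752), and with 1 mouse left out the log2 fold change ran from -0.14 without LLC1 1-5 to -0.0055 without PBS 1-3. Acta1 (ENSMUSG00000031972, chr8:123891767-123894736), the skeletal actin of the fetal heart, was at 251, 294, 266 and 434 CPM and 263, 313, 289 and 171 CPM. LLC1 2-2 was the highest and PBS 2-5 the lowest, and the log2 fold change was 0.27 (FDR 0.414), or 0.059 without LLC1 2-2 and 0.11 without PBS 2-5. The log2 ratio of Acta1 to Actc1 was -5.20, -5.10, -5.47 and -4.41 in tumor-bearing mice and -5.21, -5.21, -5.13 and -5.93 in PBS-injected mice. Its difference was 0.33 (SE 0.293, exact permutation p = 0.343). Without LLC1 2-2 it was 0.11 and without PBS 2-5 it was 0.14. Per kilobase Acta1 was at 217 and 181 CPM and Actc1 at 6228 and 6464 CPM.

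The troponin complex puts the thin filament under the control of calcium. Tnnt2, cardiac troponin T, was at 11373, 10293, 10022 and 10212 CPM and 8943, 8553, 9163 and 9265 CPM. The groups did not overlap, and the FDR was 0.0526, or 0.0465 without PBS 1-1. Its slow skeletal paralog Tnnt1 was at 16.5, 13.2, 12.5 and 14.4 CPM and 15.4, 17.6, 16.9 and 17.1 CPM (FDR 0.138). The log2 ratio of Tnnt1 to Tnnt2 was -9.43, -9.60, -9.65 and -9.47 in tumor-bearing mice and -9.18, -8.92, -9.08 and -9.08 in PBS-injected mice. All tumor-bearing mice were lower. The difference was -0.47 (SE 0.0746), with the smallest possible exact permutation p of 0.0286 and 0.0857 after adjustment. Tnni3, the inhibitory cardiac troponin I, was at 5344, 4542, 5028 and 4468 CPM and 4732, 4259.6, 3953 and 3967 CPM. It overlapped between groups through PBS 1-1 (FDR 0.158, and 0.0409 without that mouse). Tnni1, the fetal troponin I, had 0, 3, 2 and 5 counts in tumor-bearing mice and 2, 1, 5 and 6 in PBS-injected mice. At this depth no difference of Tnni1 was detectable, and its log2 ratio to Tnni3 differed by -1.02 (SE 0.875, exact permutation p = 0.314). This value rests on very few counts, and it was -0.31 without LLC1 1-2, the mouse with 0 counts, and -0.58 with 5 counts added in place of 0.5. Tnnc1, the calcium-binding subunit, had ranges of 2209 to 2649 CPM and 2011 to 2151 CPM that did not overlap, with an FDR of 0.113. No ratio of the 6 passed after adjustment. The ratios of Tnnt1 to Tnnt2 and Myl4 to Myl3 reached the smallest possible exact permutation p of 0.0286. That still gave 0.0857 adjusted, so the test could not show a difference in so few of the 6 ratios.

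**Figure D3:**
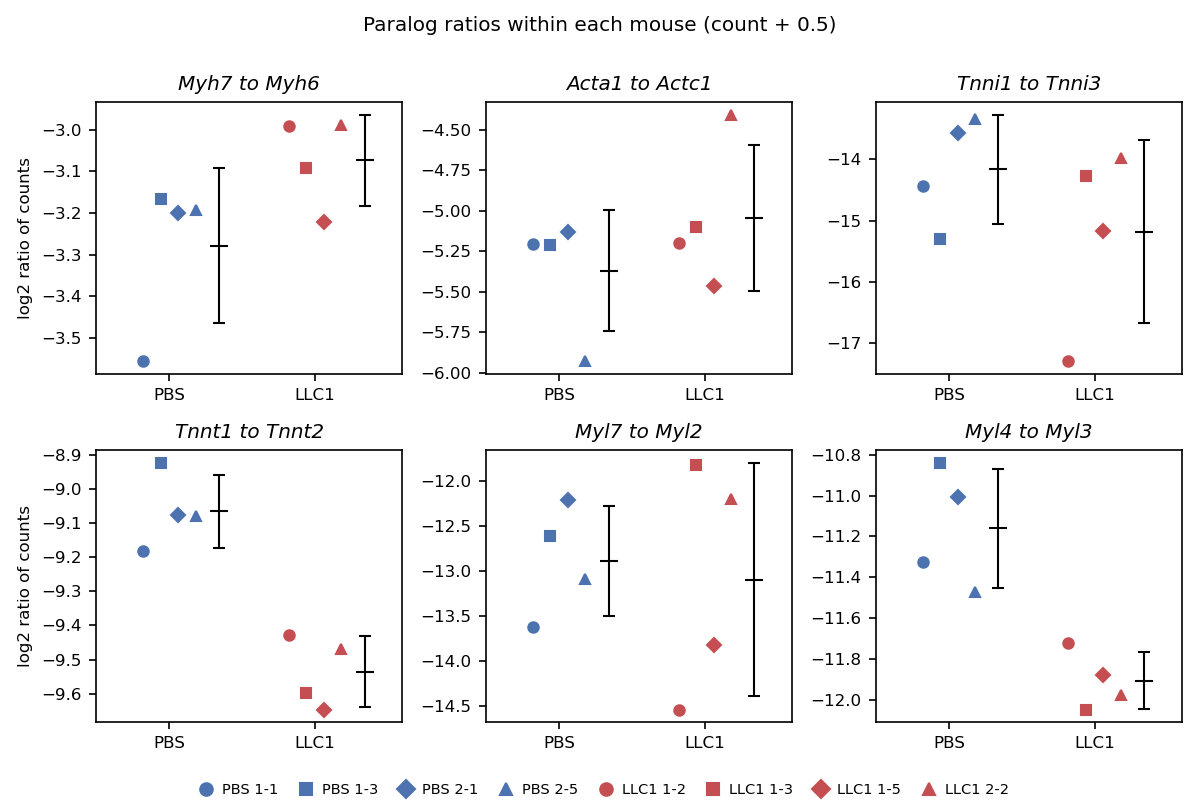
Log2 ratio of counts within a mouse (vertical axes, 0.5 added to each count, axes do not start at 0) of a fetal, skeletal or atrial paralog to the adult ventricular gene, with a point for each mouse and the mean ± SD of 4 mice. The groups separate for Tnnt1 to Tnnt2 and Myl4 to Myl3, where all tumor-bearing mice are lower, and overlap for the other 4 ratios.

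The remaining thin filament members are tropomyosins, which lie along actin, and the proteins of its pointed end. Tpm1, the main cardiac tropomyosin, ranged over 9720.2 to 11282 CPM and 9887 to 10919 CPM (FDR 0.864). Tpm2 was far lower per kilobase, at 4.77 and 5.65 CPM against 1594 and 1620.5 CPM for Tpm1, with an FDR of 0.292. Tmod1, which caps the pointed end, had a log2 fold change of -0.05 (FDR 0.663), and 32.6% of its exon bases overlap Tstd2 on the other strand. Lmod2, which lengthens thin filaments, ranged over 699.5 to 816 CPM and 554 to 663 CPM without overlap, with a log2 fold change of 0.26 and an FDR of 0.0591, or 0.30 and 0.026 without PBS 1-1.

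The largest log2 fold change of the 41 members was that of an M-band gene. Myom2 (ENSMUSG00000031461, chr8:15057653-15133541), which codes for M-protein, a crosslinker of thick filaments, was at 2693, 2382, 2145 and 2795 CPM in tumor-bearing mice. In PBS-injected mice it was at 1451, 1356, 1524 and 1475 CPM. The groups were far apart, and LLC1 1-5 was the lowest of the tumor-bearing mice. Myom2 was 1.72-fold higher (log2 fold change 0.79, SE 0.0864, FDR 0.000635), with an FDR under 0.05 in all 12 alternatives and all 8 fits without 1 mouse. Myom1, myomesin, the constitutive crosslinker of the M-band, ranged over 2283 to 2427 CPM and 1972 to 2160.3 CPM without overlap, with a log2 fold change of 0.18 and an FDR of 0.0835. Without PBS 1-1 its FDR was 0.0465, and 3 of 12 alternatives called it higher.

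Ttn (ENSMUSG00000051747, chr2:76703980-76982547), titin, was at 8109, 8744, 9030.4 and 7893 CPM in tumor-bearing mice and 18482, 8446, 8261 and 8307 CPM in PBS-injected mice. PBS 1-1 was far above the other 7 mice, which overlapped. The log2 fold change of -0.36 (SE 0.224, FDR 0.334) became 0.02 (FDR 0.889) without PBS 1-1. Ttn is the longest gene tested, at 116825 bases. Of the 12 longest genes tested, Ttn and Kcnq1ot1 were above 1 in the log2 difference of PBS 1-1 from the other PBS-injected mice, at 1.15 and 1.27, and the other 10 lay between -0.20 and 0.35. For 52 genes of 20000 bases or more the median was 0.18. Among the members, Myh7b was at 1.48-fold and Xirp2 at 1.47-fold in this mouse, while Tcap was at 0.585-fold, Ankrd1 at 0.687-fold and Tpm2 at 0.697-fold. The part of gene length or RNA quality in these values was not tested.

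**Figure D4:**
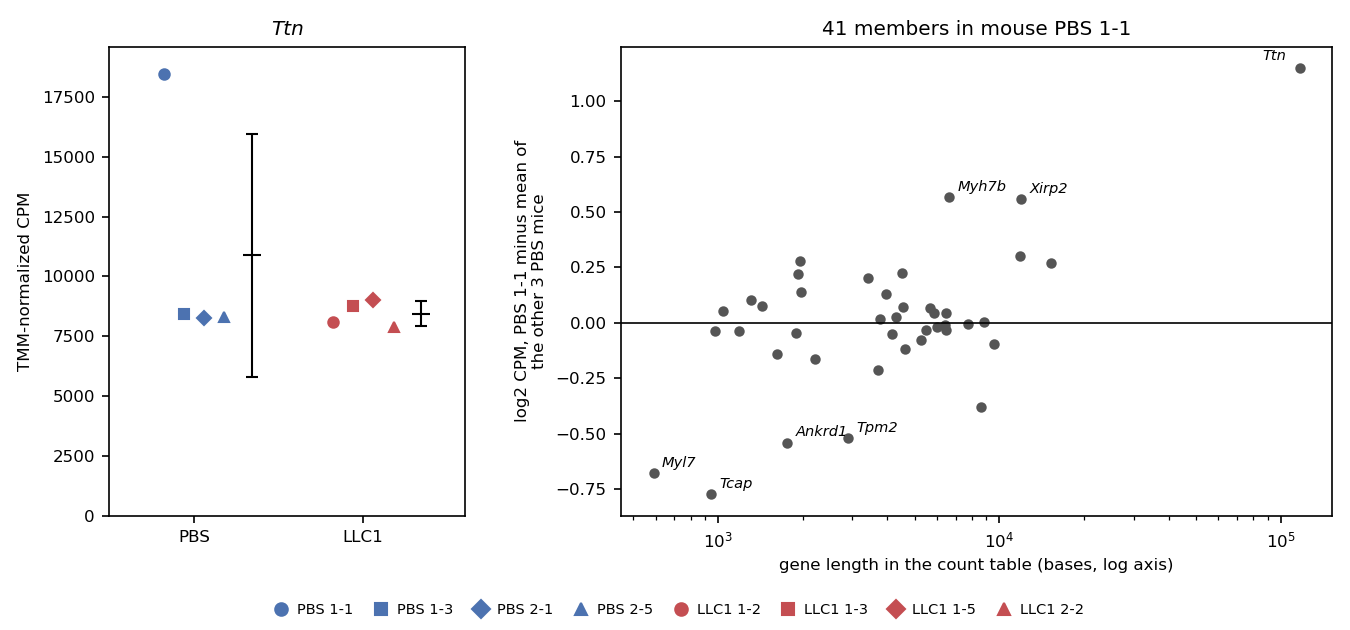
Left, titin level in each mouse (TMM-normalized CPM, axis from 0, mean ± SD of 4 mice). Right, for the 41 tested members, the log2 difference of PBS 1-1 from the mean of the other 3 PBS-injected mice (vertical axis) against gene length in bases (log axis). Titin in PBS 1-1 lies at 18482 CPM against 7893 to 9030 CPM in the other 7 mice, and is the longest member and the highest point on the right.

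The Z-disc crosslinks thin filaments of neighbouring sarcomeres. Of its 9 members 1 was higher, where 4.12% of all genes were, 7 had a log2 fold change above 0, where 7724 of 16111 genes did, and the median was 0.12 against -0.01 over all genes. Mypn (ENSMUSG00000020067, chr10:63115795-63203952), myopalladin, which links alpha-actinin to the I-band, was at 211, 225, 209 and 236 CPM and 181, 197, 194 and 185 CPM. The groups did not overlap, but the FDR of 0.0492 (log2 fold change 0.22, SE 0.0626) lay close to the threshold and was above it in all 8 fits without 1 mouse. Actn2, alpha-actinin itself, ranged over 2478 to 2728 CPM and 2012 to 2434 CPM without overlap (log2 fold change 0.22, FDR 0.0801). Its FDR was 0.0386 with the first code number of the mice as a covariate, 0.0223 in DESeq2 and 0.0266 with length offsets. These were the 3 of 12 alternatives that called it, and the largest FDR of the 12 was 0.327. It was called in 0 of 8 fits without 1 mouse, with a log2 fold change of 0.17 (FDR 0.0952) without PBS 1-1. Tcap, telethonin, which caps titin in the Z-disc, spread widely, at 1532, 1146, 1171 and 1651 CPM and 593, 727, 1024 and 1400.2 CPM. PBS 2-5 lay within the tumor-bearing range and PBS 1-1 was the lowest, and the log2 fold change of 0.55 had an SE of 0.223 and an FDR of 0.142. With the first code number as a covariate it was 0.78 (FDR 0.00892), without PBS 2-5 it was 0.81 (FDR 0.0204), and without PBS 1-1 it was 0.39 (FDR 0.193). Among the other 11 alternatives Tcap was called in 1, with all genes with a count kept (FDR 0.0483). Ldb3, a PDZ and LIM protein of the Z-disc, did not overlap between groups (1267 to 1335 against 1172 to 1222 CPM, FDR 0.201, or 0.0439 with length offsets). Myoz2, a calcineurin-binding protein, overlapped through PBS 1-1 alone (929.9 to 1084 against 821 to 957 CPM, FDR 0.122, or 0.0269 without that mouse and 0.0122 with GC offsets). Csrp3, muscle LIM protein, had a log2 fold change of 0.07. Values for the nebulin-like Nebl (-0.04), the LIM protein Pdlim5 (0.01) and the actin crosslinker Flnc (-0.04) lay within 0.05 of 0, with FDRs of 0.791, 0.942 and 0.801.

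Of the titin-associated signalling genes, 0 of 2 tested passed at an FDR under 0.05 in edgeR's test, with 0 at an unadjusted p under 0.05 and 0 in DESeq2. Ankrd1, the stretch-responsive ankyrin repeat protein of the titin I-band, was at 1111, 948, 699 and 1077 CPM and 809, 1231, 1499.5 and 886 CPM. It varied from mouse to mouse in both groups, and its log2 fold change was -0.21 (SE 0.188, FDR 0.527), running from -0.33 without PBS 1-1 to -0.029 without PBS 2-1. Fhl2, a LIM protein that binds titin, had a log2 fold change of -0.02 (FDR 0.91). Ankrd2, the relative of Ankrd1 found mainly in skeletal muscle, did not pass the filter on low counts. It had 2, 5, 6 and 5 counts in tumor-bearing mice and 4, 6, 7 and 7 counts in PBS-injected mice. In CPM every tumor-bearing mouse was below every PBS-injected mouse, at 0.132 to 0.329 against 0.343 to 0.421 CPM, a difference of a few counts.

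At the intercalated disc, the costamere and the intermediate filament, 2 of 6 members were higher, where 4.12% of all genes were. Des (ENSMUSG00000026208, chr1:75360329-75368579), desmin, the intermediate filament that ties Z-discs together, was at 2598, 2371, 2498 and 2591 CPM in tumor-bearing mice and 2027, 1977, 2049 and 1985 CPM in PBS-injected mice. All tumor-bearing mice were above, and the PBS-injected mice varied little. It was 1.25-fold higher (log2 fold change 0.32, SE 0.0598, FDR 0.00889), in all 12 alternatives and all 8 fits without 1 mouse. Nrap (ENSMUSG00000049134, chr19:56320035-56390037), the nebulin-related anchoring protein of the disc, was at 1143, 1186, 1156 and 1235 CPM and 988, 1034, 1027 and 969 CPM. These did not overlap, with a log2 fold change of 0.23 (SE 0.0593, FDR 0.0323), under 0.05 in 1 of 8 fits without 1 mouse. Xirp2, a Xin repeat protein, was at 636, 623, 729 and 628 CPM and 1039.6, 804, 729 and 602 CPM. PBS 1-1 was the highest and PBS 2-5 the lowest, and the log2 fold change was -0.28 (FDR 0.215), or -0.39 (FDR 0.0435) without PBS 2-5 and -0.12 (FDR 0.43) without PBS 1-1. The related Xirp1 (log2 fold change 0.08, FDR 0.488), the small heat shock protein Cryab (0.14, FDR 0.221) and the costameric Cmya5 (0.07, FDR 0.658) did not pass. Of the assembly factors, the myosin chaperone Unc45b was at 0.14 (FDR 0.255) and the methyltransferase Smyd1 at 0.02 (FDR 0.845).

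**Figure D5:**
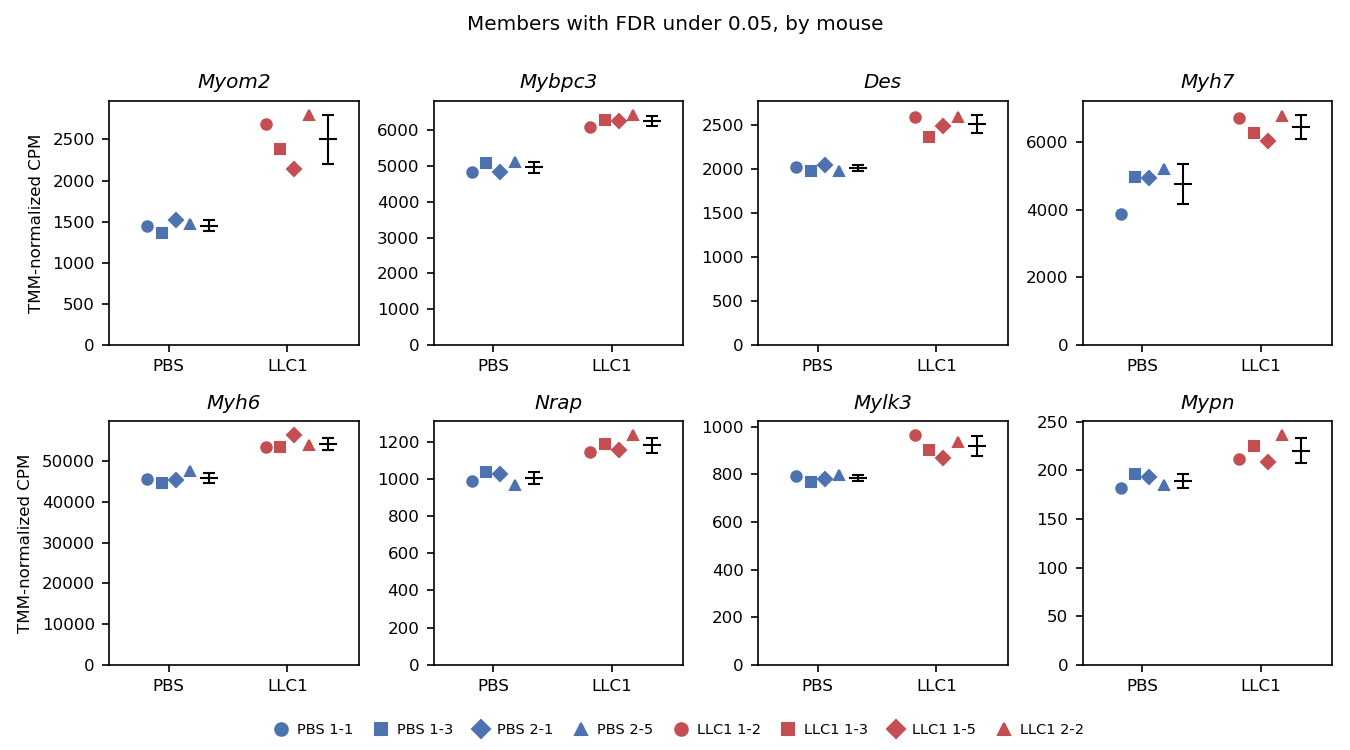
TMM-normalized CPM (vertical axes, starting at 0) of the 8 members with FDR under 0.05, with a point for each mouse and the mean ± SD of 4 mice in each group. In each panel the 4 tumor-bearing mice lie above the 4 PBS-injected mice, with the widest gap relative to the level for Myom2, at 2145 to 2795 CPM against 1356 to 1524 CPM.

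By role, 4 of 9 thick filament members, 0 of 10 thin filament members and 1 of 9 Z-disc members tested were higher, with median log2 fold changes of 0.23, 0.08 and 0.12. These are descriptions, and the difference between roles was not tested. A further 38 sarcomere genes outside the 43 were read from the same fit. Of the 35 tested, 4 were higher and 2 were lower, where 4.12% and 4.61% of all genes were, with a median log2 fold change of 0.03 against -0.01 over all genes. The share of lower genes was thus near that over all genes. Among the higher genes were the formin Fhod3 (log2 fold change 0.26, FDR 0.0204), the ubiquitin ligase Trim54 (0.45, FDR 0.0217) and the small heat shock protein Hspb6 (0.25, FDR 0.035). Lower were the tropomyosins Tpm3, at 48.6 ± 2.43 against 64.7 ± 6.17 CPM (log2 fold change -0.42, FDR 0.00892), and Tpm4, at 76.6 ± 4.54 against 128 ± 19.7 CPM (-0.74, FDR 0.00183). Both are expressed widely outside cardiomyocytes. Of the markers given above, 4 of 7 fibroblast, 1 of 6 endothelial and 1 of 5 macrophage markers were also lower. The fibroblast markers Pdgfra (log2 fold change -0.07, FDR 0.654), Dcn (0.07, FDR 0.612) and Tcf21 (-0.21, FDR 0.331) did not pass. The part of other cell types in the result was not tested.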

How the data were processed

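Per the labels and the study's methods, total RNA of ventricles was made into TruSeq libraries and sequenced as 150-base paired reads. The authors deposited whole-number read counts per gene, not normalized. The submitters' processing notes name CASAVA, STAR, featureCounts and mm10. Versions, annotation and strand setting are not given in the sources used here. Counts of 8 mice (4 LLC1, 4 PBS) were compared with edgeR 4.0.16 (filterByExpr, TMM, quasi-likelihood F-test, all genes, Benjamini-Hochberg, FDR under 0.05). SE is the absolute log2 fold change divided by the square root of F. Within-mouse ratios (0.5 added) were compared by exact permutation over 70 arrangements, smallest p 0.0286. Nothing in the labels says how mice were housed or batched. All 43 members could be named, with values by mouse for changed members and the 6 ratios. The members and lists were chosen with earlier results of these data known. Alternatives were DESeq2 1.42.0, limma-voom (limma 3.58.1), other scalings, filters and offsets, and each mouse left out. The promoter window was widened after the data were seen. On simulated data, 170 of 200 genes changed 2-fold were recovered (85%), and 10 unchanged genes were called. The largest change of a tested member was 1.72-fold, so recovery of changes as small as those reported here was not measured. Transcripts were aligned with BLAST 2.17.0. Values of some genes on the lists are not reported here.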

Additional observations from a re-analysis of the deposited data

Results flagged for a closer look

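In groups of 4 mice, 7 of 98 groups of values had a mouse whose gap to the nearest other mouse was large against the whole range of its group by Dixon's test, which chance gives in about 1 of 20 groups. Ttn was at 18482 CPM in PBS 1-1 against 8261 to 8446 CPM in the other PBS-injected mice. The log2 ratio of Myh7 to Myh6 was -3.56 in PBS 1-1 against -3.20 to -3.17, and Ankrd2 was at 0.343 CPM in that mouse against 0.412 to 0.421 CPM, a difference of a few counts. The log2 ratio of Acta1 to Actc1 was -5.93 in PBS 2-5 against -5.21 to -5.13. Flnc was at 661 CPM in PBS 1-3 against 549 to 564 CPM. In LLC1 1-5, Myh6 was at 56460 CPM against 53471 to 53927 CPM in the other tumor-bearing mice, and Xirp2 was at 729 CPM against 623 to 636 CPM.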

How the results depend on the processing

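The number of members higher in tumor-bearing mice was 8, and it was 13 in DESeq2, 5 in edgeR's likelihood ratio test (which called 853 of all genes higher, 5.29%, against 663) and 3 with scaling to total counts only. It was 7 to 12 in the other 9 alternatives with all mice and 4 to 13 with 1 mouse left out. The number lower was 0 in all 12 alternatives with all mice and 0 to 1 with 1 mouse left out, Xirp2 without PBS 2-5. Of the other sarcomere genes, 4 were higher, against 8 in DESeq2, 1 with total counts only, 8 with length offsets and 1 to 7 with 1 mouse left out, and 2 were lower, or 2 to 4 with 1 mouse left out. Myom2, Mybpc3 and Des passed in every one of these fits, Myh7 in 11 of 12 alternatives and 8 of 8 fits without 1 mouse, Myh6 in 9 and 4, Mylk3 in 10 and 2, Nrap in 9 and 1, and Mypn in 6 and 0. Of 491 pairs of a member and an alternative with all mice, 9 changed sign, all of members that did not pass: Myl7 was at -0.088 in limma-voom, Tpm1 0.062, Csrp3 -0.016, Nebl 0.044 and Flnc 0.055 with length offsets, Nebl 0.098 with GC offsets, Pdlim5 -0.043 and Smyd1 -0.029 with total counts only, and Pdlim5 -0.0102 with the first code number as covariate. With 1 mouse left out, the log2 fold change ranged from -0.25 to 0.46 for Myl7, -0.067 to 0.00019 for Tpm1, -0.48 to 0.019 for Ttn, -0.12 to 0.027 for Nebl, -0.039 to 0.032 for Pdlim5, -0.068 to 0.026 for Flnc, -0.076 to 0.024 for Fhl2, -0.0043 to 0.15 for Cmya5 and -0.013 to 0.042 for Smyd1. The cause was not tested. The ratio of Myl7 to Myl2 ranged from -0.63 to 0.27 with 1 mouse left out, and the other 5 ratios kept their sign. No permutation test of the ratios was run with 1 mouse left out. The search window for motifs was changed after its matches were seen, which took CArG boxes from 7 to 8 members and MCAT elements from 11 to 13. The 2 groups share 1 code (1-3), on different animals. The labels do not match mice between the groups, so no paired analysis was made. With the first code number as covariate 11 members were higher, where 846 (5.25%) of all genes were. Depth limits Tnni1, Ankrd2, Myl7 and Myl4.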
